A study of Zea mays subsp. mays with 2 samples.

Results

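Convergent transcripts run toward each other on opposite strands, so that their 3' ends can overlap and the overlapping stretch is present in both RNAs as complementary sequence. Such pairs are called cis natural antisense transcripts. In plants they are studied as possible sources of double-stranded RNA, which Dicer-like enzymes can cut into small RNAs, a process described in Arabidopsis under salt stress. Polymerases that meet at convergent 3' ends can also hinder each other, as has been shown in yeast. The overlap described here is one of genomic spans and does not show that both RNAs were made in the same cell.

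A pair was defined by position alone, as a plus-strand and a minus-strand locus on one chromosome that overlap at their 3' ends while neither lies inside the other. By this definition 693 pairs were found, made up of 1383 of the 37398 listed loci, or 3.70%. Each pair consists of a plus partner, whose right end lies in the overlap, and a minus partner, whose left end does. The levels came from roots and from shoots of the maize inbred line B73, collected separately 14 days after germination from plants of a growth chamber, and the labels name no treatment. There was 1 strand-specific library of polyadenylated RNA for each tissue, so no difference has a replicate check and no test between tissues can be made. Levels are in FPKM, which divides fragment numbers by transcript length and library total.

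The file names no genes and 0 of its identifiers matched the maize RefSeq gene table, so loci are given by strand and position on B73 RefGen_v2. For the same reason the tissue labels could not be checked against marker genes, and coding loci, exons and UTRs could not be separated. No genome of this build was at hand, and no sequence is shown. The depth of the libraries is unknown, since the table holds no counts. The listed FPKM summed to 1184202 in roots and 1251263 in shoots, of which the members held 3.75% and 4.03%. Both libraries are of whole organs, so fewer cells transcribing a locus and less RNA per cell cannot be told apart.

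Most of the overlaps were short next to the loci that share them. The overlap ranged from 4 to 66298 bp with a median of 353 bp, and its quartiles were 98 and 917 bp. At the median it covered 16.3% of the span of the shorter partner and 6.37% of that of the longer one, where span is the genomic distance from start to end, introns included. In 147 pairs (21.2%) more than 50% of the shorter partner was covered, and in 271 pairs (39.1%) at most 10%. The members were long loci, with a median span of 3865 bp against 2443 bp over all loci. The spans enter the definition, so this difference is given as a description.

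Overlaps of just under 100 bp were the most frequent. There were 78 pairs with overlaps of 81 to 100 bp and 16 pairs with overlaps of 101 to 120 bp. Within narrower limits, 47 pairs fell at 91 to 100 bp and 7 at 101 to 110 bp. The libraries were sequenced for 100 cycles, and the number of pairs dropped at that length. Head-to-head pairs, in which the 5' ends overlap, showed the same drop, with 109 pairs at 81 to 100 bp and 8 at 101 to 120 bp. Overlaps of at most 100 bp made up 28.0% of the convergent pairs (194) and 44.1% of the head-to-head pairs (181). Gaps between convergent loci that did not overlap showed no such peak, with 39 to 78 pairs in each 50 bp class up to 1 kb. What part the sequencing length has in these overlaps was not tested, and the main values are therefore also given for pairs that overlap by more than 100 bp.

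**Figure D1:**
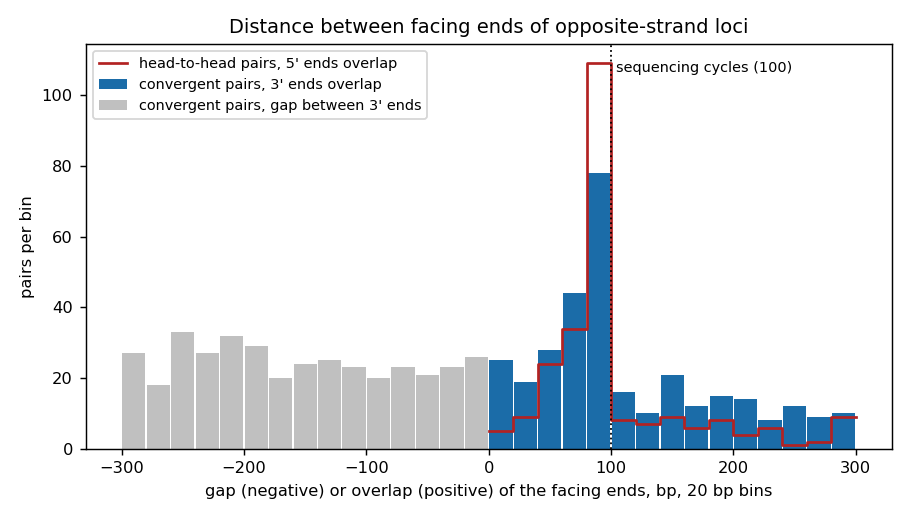
Number of opposite-strand pairs per 20 bp bin (y axis) against the distance between their facing ends in bp (x axis, gaps negative and overlaps positive). Blue bars are convergent overlapping pairs, grey bars convergent pairs with a gap, and the red line head-to-head overlapping pairs; the blue bars reach 78 at 81 to 100 bp and drop to 16 in the next bin, at the dotted line that marks 100 sequencing cycles.

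At the limit of the definition, the shortest overlaps were 4, 4, 5 and 5 bp and the nearest pairs left out had gaps of 0, 2, 2 and 3 bp. In the pair with 4 bp of overlap on chromosome 3, the plus locus from 226763647 to 226769341 had 7.38 FPKM in roots and 7.03 in shoots. Its minus partner, from 226769338 to 226771691, had 376 FPKM in roots and 387 in shoots. In the pair on chromosome 7 that abuts without overlap, the plus locus from 170855215 to 170860182 had 9.26 FPKM in roots and 81.7 in shoots. Its minus neighbour, from 170860183 to 170885812, had 115 FPKM in roots and 252 in shoots. In the other pair with 4 bp of overlap, on chromosome 2, the plus locus had 0.09 FPKM in roots and 124 in shoots. Its minus partner had 1.30 FPKM in roots and 3.76 in shoots. Among the nearest pairs left out the lowest level was 4.43 FPKM. So few pairs do not describe the levels on either side of the limit.

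Pairs occurred on all 10 chromosomes, from 37 on chromosome 10 to 104 each on chromosomes 1 and 5. The share of listed loci in such pairs was 2.84% on chromosome 10 and 4.86% on chromosome 5, and between 3.35% and 3.94% on the other chromosomes. Nearly every locus had a single partner. The exceptions were 3 loci with 2 partners each, and none had more. In each of these 3 cases the shorter partner lies wholly inside the longer one, on the same strand. One of these is the minus locus on chromosome 10 from 2433027 to 2436924, with 35.1 FPKM in roots and 35.3 in shoots. It overlaps a plus locus from 2432382 to 2436186, with 14.9 FPKM in roots and 33.4 in shoots, and a short plus locus from 2433025 to 2433207, with 1.17 FPKM in roots and 3.12 in shoots. The other such loci are the plus loci on chromosome 2 from 213162946 to 213168681 and on chromosome 8 from 163716167 to 163724178, each with 1 of its minus partners spanning only 165 and 372 bp. These 3 loci were named because they are few, after their values were seen.

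The longest overlaps joined loci of very large span. On chromosome 10, a plus locus of 71691 bp from 2043909 to 2115599 and a minus locus of 81263 bp from 2049302 to 2130564 shared 66298 bp. The plus partner had 20.8 FPKM in roots and 23.2 in shoots, and the minus partner 110 FPKM in roots and 20.6 in shoots. The partners were thus about level in shoots and 5.07-fold apart in roots, with 1 FPKM added to both. The next longest overlap, 18333 bp, lies on chromosome 2 between a plus locus from 209584090 to 209604967 and a minus locus from 209586635 to 209610220. The plus partner had 20.9 FPKM in roots and 47.9 in shoots, and the minus partner 5.43 FPKM in roots and 83.9 in shoots. In this pair the plus partner was the stronger in roots and the minus partner in shoots.

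The level of the member loci, set against other loci, depended on span. Over all spans their median was 9.65 FPKM in roots and 11.7 in shoots, against 8.20 and 8.91 FPKM in roots and shoots over all loci. Within classes of span the direction turned in roots, where the median was lower in members than in other loci in each of 4 classes. From 2001 to 5000 bp it was 10.3 FPKM in members and 12.4 FPKM in other loci, and over 5000 bp it was 13.4 and 16.5 FPKM. In shoots the members' median was the lower in all classes but that above 500 and up to 2000 bp, where it was 4.36 FPKM in members and 4.17 FPKM in other loci. A level of 100 FPKM in at least 1 tissue was reached by 121 members (8.75%) and by 7.69% of all loci. Detected means an FPKM of at least 1. In both tissues 1185 members (85.7%) were detected, against 81.0% of all loci. Within span classes this share was not larger in members, with 57.9% of members and 66.2% of other loci up to 500 bp and 68.5% of both above 500 and up to 2000 bp. It was 87.6% of members and 89.0% of other loci from 2001 to 5000 bp, and 93.6% and 94.7% over 5000 bp. A further 68 members (4.92%) were detected in roots and not in shoots, against 7.44% of all loci. In shoots and not in roots 130 members (9.40%) were detected, against 11.6% of all loci. Of the 1383 members, 11 were listed at 0 in roots and 5 in shoots. Of all 37398 loci, 597 were listed at 0 in roots and 276 in shoots. The table lists only loci above 1 FPKM in at least 1 tissue, so these shares do not describe all transcription.

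The most abundant members stood far above their partners. The highest level of any member in roots was that of the minus locus on chromosome 2 from 18133344 to 18135367, with 2617 FPKM in roots and 1185 in shoots. Its plus partner, from 18111237 to 18134037, had 9.27 FPKM in roots and 9.89 in shoots. The highest in shoots was the plus locus on chromosome 6 from 88745204 to 88746905, with 28.8 FPKM in roots and 2976 in shoots. Its minus partner, from 88746845 to 88749248, had 8.90 FPKM in roots and 6.48 in shoots. The highest plus locus in roots, on chromosome 7 from 2133070 to 2135670, had 969 FPKM in roots and 539 in shoots. Its minus partner, from 2135585 to 2140936, was itself above the members' upper quartile, with 47.9 FPKM in roots and 48.2 in shoots. In these 3 pairs the partner of the abundant locus differed by less than 2-fold between the tissues. The loci were picked after their values were seen.

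Both partners of a pair were usually present in the same tissue, at unequal levels. Both were detected in 572 pairs (82.5%) in roots and in 627 pairs (90.5%) in shoots. These shares were near those of all opposite-strand pairs that overlap or lie within 1 kb, 81.6% in roots and 85.4% in shoots, and of convergent pairs with a gap, 86.5% in roots and 90.7% in shoots. They were both detected in each of the tissues in 513 pairs, in roots alone in 59, in shoots alone in 114 and in neither tissue in 7. The weaker partner stood at a median of 22.7% of the level of the stronger in roots, with quartiles of 6.56% and 50.1%, over the 684 pairs whose stronger partner was detected. In shoots its median was 25.3%, with quartiles of 9.26% and 55.6%, over 690 pairs. The weaker partner exceeded 50% of the stronger in 172 pairs in roots and in 193 in shoots. It was under 1% in 39 pairs in roots and 32 in shoots, and in 5 pairs in both tissues. The strand purity of the libraries was not measured. With both partners at 5 FPKM or more in a tissue, which 404 pairs met, the medians were 30.6% in roots and 38.2% in shoots. Above 100 bp of overlap they were 23.3% in roots and 28.5% in shoots. In the 194 pairs of at most 100 bp they were 20.7% in roots and 19.3% in shoots. Both partners were detected in both tissues in 67.5% of these short overlaps and in 76.6% of those above 100 bp. The difference was not tested.

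The medians of the neighbouring arrangements were close where loci did not overlap and lower where they overlapped otherwise. Among 1113 convergent pairs with at most 1 kb between their 3' ends, the weaker partner stood at 24.3% in roots and 25.9% in shoots. Among the 410 pairs overlapping at their 5' ends the medians were 16.6% in roots and 16.9% in shoots. In the 880 pairs with 1 locus wholly inside the other they were 15.9% in roots and 17.0% in shoots. Loci of these classes differ in span, and the differences between classes were not tested. Across the convergent overlapping pairs, Spearman's rho between overlap length and the weaker share was 0.05 in roots and 0.09 in shoots, so longer overlaps hardly went with more or less equal partners.

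**Figure D2:**
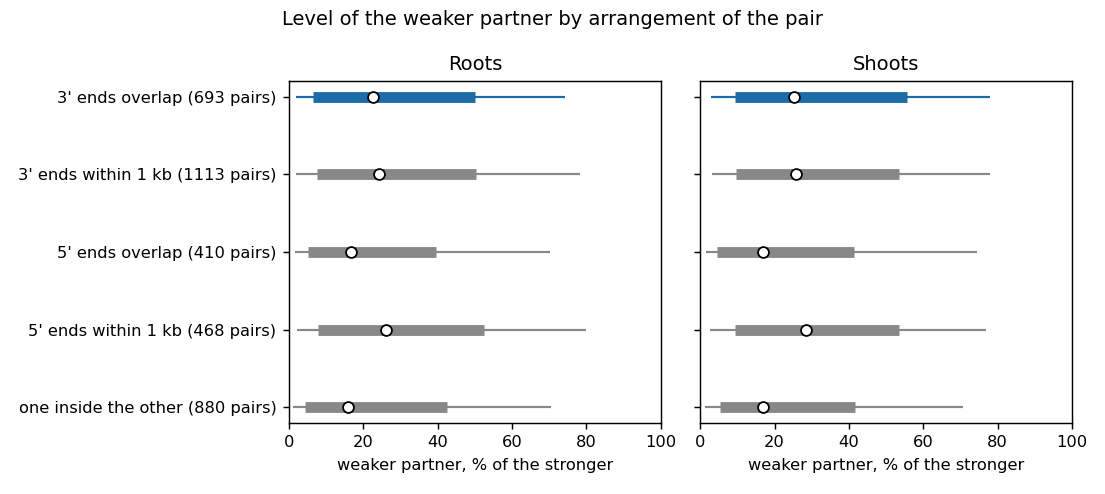
Level of the weaker partner as a percent of the stronger (x axis), in roots and in shoots, for 5 arrangements of opposite-strand loci (y axis). Circles are medians, thick bars the quartiles and thin lines the 10th to 90th percentiles over pairs; the convergent overlapping pairs, in blue, have medians of 22.7% in roots and 25.3% in shoots.

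Some pairs had abundant transcripts on both strands. By the level of the weaker partner over both tissues, the first was on chromosome 1, where a plus locus from 54598727 to 54603979 and a minus locus from 54602421 to 54605364 overlap by 1559 bp. The plus partner had 11.5 FPKM in roots and 463 in shoots, and the minus partner 315 FPKM in roots and 173 in shoots. The minus partner was therefore the stronger in roots and the plus partner in shoots. The next was on chromosome 6, with 392 bp shared between a plus locus from 150887246 to 150890102 and a minus locus from 150889711 to 150892897. The plus partner had 185 FPKM in roots and 61.6 in shoots, while the minus partner had 126 FPKM in roots and 129 in shoots. The third, also on chromosome 6, had 495 bp shared between a plus locus from 35892952 to 35896625 and a minus locus from 35896131 to 35897803. Its plus partner had 149 FPKM in roots and 99.5 in shoots, and its minus partner 86.6 FPKM in roots and 68.5 in shoots. In this pair both levels were higher in roots by less than 2-fold.

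At the other end, some partners were close to absent beside an abundant locus. The most unequal pair lies on chromosome 3, where the minus locus from 40528179 to 40530723 had 929 FPKM in roots and 79.7 in shoots. Its plus partner, from 40522698 to 40530170, had 0.79 FPKM in roots and 1.07 in shoots, and the overlap of 1992 bp covers 78.3% of the minus locus. The next, on chromosome 5, joins a minus locus from 15546617 to 15552849 with 570 FPKM in roots and 230 in shoots to a plus locus from 15546474 to 15547368 with 1.17 FPKM in roots and 0.43 in shoots. The weaker partner made up 0.18% of the stronger in the first pair and 0.20% in the second, over the sum of the tissues.

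Differences between the tissues were computed as log2((roots FPKM + 1)/(shoots FPKM + 1)), so that positive values mean higher in roots. A call of higher in roots or higher in shoots needed a difference of at least 4-fold on this scale, which understates the change of low loci. The median log2 ratio of the members was 0.06, with quartiles of -0.52 and 0.54, against a median of 0.06 over all loci. At least 4-fold higher in roots were 41 members (2.96%), where all loci gave 3.95%. At least 4-fold higher in shoots were 134 members (9.69%), where all loci gave 7.55%. The remaining 1208 members (87.3%) lay within 4-fold and 979 (70.8%) within 2-fold. Differences of at least 16-fold were found at 4 members higher in roots (0.29%) and 53 higher in shoots (3.83%), where all loci gave 0.594% and 1.96%. The members thus lay near all loci in the middle of the distribution, with fewer calls toward roots and more toward shoots. Over pairs with more than 100 bp of overlap, 29 of 995 members were higher in roots and 98 in shoots. The shares over all loci are again 3.95% and 7.55%.

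These shares moved with span and level. Among members of 2001 to 5000 bp, 2.57% of 623 were higher in roots and 10.8% in shoots, against 3.47% and 7.69% of the other loci of this size. Among members over 5000 bp, 2.67% of 487 were higher in roots and 6.78% in shoots, against 1.23% and 5.31% of the others. Over 500 and up to 2000 bp, 3.83% of 235 members were higher in roots and 13.2% in shoots, against 6.85% and 9.60% of the others. Up to 500 bp, 3 of 38 members (7.89%) were higher in roots and 3 in shoots, against 4.14% and 6.58% of the others. The root share was therefore smaller in members than in other loci in the 2 middle classes only. The shoot share was larger in all 4, but 3 calls among 38 members are too few to give a direction up to 500 bp. By level, of the 600 members reaching 20 FPKM in a tissue 17.2% were called toward shoots, against 11.2% of other loci at this level. From 5 to under 20 FPKM the shares were 6.67% of 450 members and 8.17% of the other loci, and under 5 FPKM 0.30% of 333 members and 2.21% of the others. The share of shoot calls was thus larger in members than in other loci only in the highest of these 3 classes, and the difference between classes was not tested.

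The partners of each pair were also divided into a stronger and a weaker one by the sum of both tissues. Of the 693 stronger partners, 24 (3.46%) were higher in roots and 86 (12.4%) in shoots. Of the weaker partners, 17 (2.45%) were higher in roots and 48 (6.93%) in shoots. All loci gave 3.95% and 7.55%. The sum holds the same levels as the calls, so a locus very high in 1 tissue tends to become the stronger partner. These counts are therefore a description. Median levels were 21.9 FPKM in roots and 24.1 in shoots for stronger partners, and 4.73 FPKM in roots and 5.12 in shoots for weaker ones. The added FPKM keeps low loci from being called, which bears on the weaker partners most. Plus and minus members were alike in these counts, with 21 and 20 called higher in roots and 69 and 65 in shoots.

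A strong difference of one partner between the tissues was rarely matched by the other. In 524 pairs neither partner was called, in 163 pairs (23.5%) a single one was, and in 6 pairs both were. A single partner was called in 17.9% of all 3564 opposite-strand pairs that overlap or lie within 1 kb, and in 17.4% of the convergent pairs with a gap. Both partners were higher in roots in 1 pair (0.14%) and higher in shoots in 3 (0.43%), and they had opposite bias in 2 (0.29%). Over the 3564 pairs the shares of these outcomes were 0.168% for both higher in roots, 0.842% for both higher in shoots and 0.224% for opposite bias. Counts this small do not separate the convergent pairs from that background.

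Most partners of biased loci lay within 2-fold between the tissues, as did most partners of other members. The 134 partners of members higher in shoots had a median log2 ratio of 0.18, with quartiles of -0.29 and 0.42. Of them, 104 (77.6%) lay within 2-fold and 82 above 0. The 41 partners of members higher in roots had a median of 0.11, with quartiles of -0.43 and 0.70. Of these, 28 (68.3%) lay within 2-fold and 23 above 0. The 1211 partners of members within 4-fold had a median of 0.05, with 850 (70.2%) within 2-fold and 640 above 0. Neither group of partners was shifted far toward the bias of its neighbour or against it.

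Across the 693 pairs, Spearman's rho between the log2 ratios of plus and minus partners was -0.05, and it was -0.03 over the 499 pairs with more than 100 bp of overlap. The points share the same 2 libraries, and the value is a description. In the 5 classes of overlap length, from 1 to 50 bp up to over 1000 bp, rho lay between -0.08 and -0.03. Divided instead by the share of the shorter partner that was covered, it was -0.05 in 271 pairs at up to 10%, -0.01 in 147 pairs at 10 to 25%, -0.25 in 128 pairs at 25 to 50% and 0.06 in 147 pairs above 50%. Between the partners' levels rho was 0.03 in roots and 0.04 in shoots. For comparison, rho between log2 ratios was 0.02 in convergent pairs with a gap, 0.30 in pairs overlapping at their 5' ends, 0.15 in head-to-head pairs with a gap of at most 1 kb and 0.18 in nested pairs. With both partners at 5 FPKM or more in a tissue these values were -0.04, 0.17, 0.07 and 0.25, and that of the convergent overlapping pairs was -0.06. Partners' ratios were of the same sign in 344 of the 693 convergent pairs (49.6%) and in 246 of the 410 pairs with overlapping 5' ends (60.0%).

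**Figure D3:**
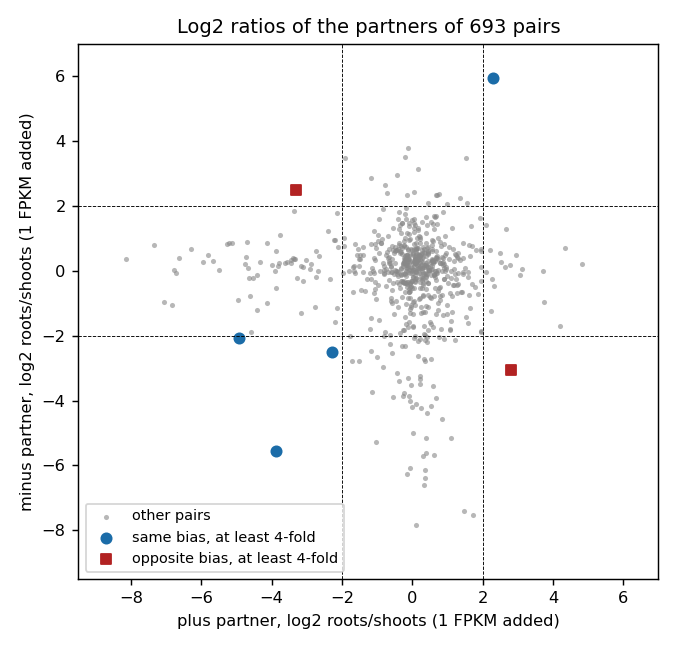
Log2 ratio of roots over shoots of the minus partner (y axis) against that of the plus partner (x axis) for the 693 convergent overlapping pairs, 1 FPKM added, with dashed lines at 4-fold. Most biased loci lie along the axes, with a partner near 0; blue circles mark the 4 pairs with the same bias and red squares the 2 with opposite bias.

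The only pair with both partners called higher in roots lies on chromosome 10 and has short partners. Its plus locus, from 73282496 to 73282756, had 3.89 FPKM in roots and was listed at 0 in shoots. Its minus locus, from 73282625 to 73283205, had 123 FPKM in roots and 1.02 in shoots. The plus locus reached 3.16% of the minus locus in roots.

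Of the 3 pairs with both partners higher in shoots, 2 lie on chromosome 10. In the first, the plus locus from 145106393 to 145121345 was listed at 0 in roots and had 13.6 FPKM in shoots, and the minus locus from 145120567 to 145126097 had 0.12 FPKM in roots and 51.9 in shoots. Here a tissue difference on both strands came with 779 bp of overlap, and both loci were close to absent in roots. In the second, the plus locus from 129459455 to 129463455 had 0.33 FPKM in roots and 5.52 in shoots, and the minus locus from 129463244 to 129465784 had 2.18 FPKM in roots and 17.0 in shoots. The third pair, on chromosome 5, has a plus locus of only 117 bp from 211282895 to 211283011, listed at 0 in roots and with 29.4 FPKM in shoots. Its minus partner, from 211282920 to 211283707, had 0.03 FPKM in roots and 3.39 in shoots. FPKM of so short a locus depends strongly on the fragment length assumed.

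The 2 pairs of opposite bias lie on chromosomes 3 and 2. On chromosome 3 the plus locus P_XLOC_010895, from 58078414 to 58081645, had 30.0 FPKM in roots and 3.46 in shoots. The minus locus M_XLOC_011130, from 58081466 to 58084089, had 11.4 FPKM in roots and 103 in shoots, and 180 bp are shared. The plus partner led by 2.50-fold in roots and the minus partner by 23.3-fold in shoots, with 1 FPKM added. On chromosome 2 the plus locus P_XLOC_006789, from 6473777 to 6482852, had 1.74 FPKM in roots and 26.1 in shoots. The minus locus M_XLOC_007015, from 6475924 to 6486253, had 102 FPKM in roots and 17.2 in shoots. These loci share 6929 bp, which is 76.3% of the plus locus and 67.1% of the minus locus. The partners were 37.8-fold apart in roots and 1.49-fold apart in shoots.

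At the opposite extreme stood pairs with the same levels in both tissues. Among the 135 pairs with all 4 levels at 10 FPKM or more, the most even was on chromosome 9. Its plus locus, from 151272721 to 151276818, had 30.9 FPKM in roots and 30.8 in shoots, and its minus locus, from 151275204 to 151280003, had 12.8 FPKM in roots and 12.9 in shoots. The second, on chromosome 1, joins a plus locus from 38243608 to 38249171 with 13.3 FPKM in roots and 13.4 in shoots to a minus locus from 38248655 to 38252655 with 11.5 FPKM in roots and 10.8 in shoots. The overlaps were 1615 and 517 bp.

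The stronger partner was not always the same one in roots as in shoots. It differed in 167 pairs (24.1%), against 18.1% of all opposite-strand pairs that overlap or lie within 1 kb. That share was 18.1% in convergent pairs with a gap and between 12.7% and 20.7% in the other arrangements. In 53 pairs (7.65%) it differed with at least 2-fold between the partners in each tissue, 1 FPKM added. Among all opposite-strand pairs that overlap or lie within 1 kb, these 53 included, the share with 2-fold in each tissue was 4.38%. It was 4.67% in convergent pairs with a gap, 3.17% in pairs with overlapping 5' ends, 3.85% in head-to-head pairs with a gap and 2.27% in nested pairs. Where both partners reached 5 FPKM in a tissue the share was 9.90% of 404 convergent overlapping pairs, 6.47% in convergent pairs with a gap and 8.70% in pairs with overlapping 5' ends. Among pairs with more than 100 bp of overlap it was 7.41%. The convergent overlapping pairs had the highest share of the 5 classes, but low partners make such exchanges harder to call and the difference between classes was not tested.

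In most of these 53 pairs the exchange came with a locus that was abundant in shoots and low in roots. The partner that led in shoots had a median log2 ratio of -4.35 and was at least 4-fold higher in shoots in 43 pairs. The partner that led in roots had a median log2 ratio of 0.37, and it was at least 4-fold higher in roots in 7 pairs and within 2-fold in 37. By definition the 2 ratios of such a pair differ by at least 4-fold, and the counts show on which partner that difference lay. It was the plus partner that led in roots in 25 pairs and the minus partner in 28. The overlaps of these pairs ranged from 4 to 7118 bp, with a median of 291 bp. Calls toward shoots were also the more frequent over all loci, with 7.55% against 3.95% toward roots, and among members, with 134 against 41. Exchanged pairs of the other arrangements were not divided by which partner was called. The larger number of shoot calls is therefore not shown to be particular to these pairs.

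**Figure D4:**
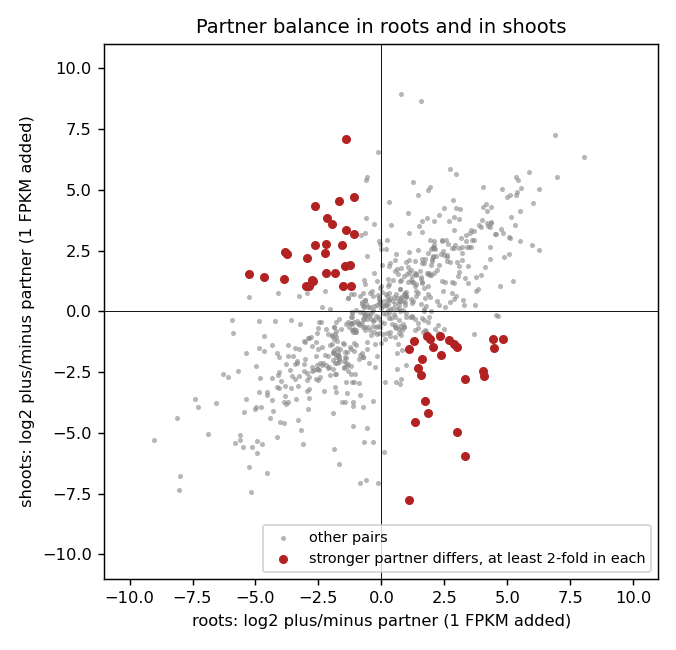
Log2 ratio of the plus over the minus partner in shoots (y axis) against the same in roots (x axis) for 693 pairs, 1 FPKM added. Red points are the 53 pairs whose stronger partner differed with at least 2-fold in each tissue; 25 lie at lower right, with the plus partner leading in roots, and 28 at upper left.

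With at least 4-fold between the partners in each tissue, 13 pairs exchanged their stronger partner. By definition the 2 ratios of such a pair differ by at least 16-fold, so at least 1 partner differs by 4-fold or more between the tissues. The counts show only on which partner that difference lay. In 12 of the 13 pairs the partner that led in shoots was called higher in shoots, and in 11 the partner that led in roots was within 2-fold. The strongest exchange was on chromosome 3, between a plus locus from 201182415 to 201185853 and a minus locus from 201185703 to 201188638 that share 151 bp. The plus partner had 12.5 FPKM in roots and 3.10 in shoots, and the minus partner 0.35 FPKM in roots and 249 in shoots. The log2 ratios were 1.72 and -7.54, the largest difference among the 267 pairs with both partners at 10 FPKM or more in a tissue.

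A second pair on chromosome 3 has a plus locus from 138115640 to 138123330 with 17.7 FPKM in roots and 16.4 in shoots. Its minus partner, from 138123247 to 138124337, had 1.36 FPKM in roots and 544 in shoots, and the overlap is 84 bp. On chromosome 4, the plus locus from 58331160 to 58349507 had 9.997 FPKM in roots and 11.3 in shoots. The minus locus from 58349439 to 58352989 shares 69 bp with it and had 0.11 FPKM in roots and 83.3 in shoots. In both pairs the plus partner stood nearly level in the tissues while the minus partner was low in roots and high in shoots.

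Plus loci showed the same pattern on chromosome 2. The plus locus from 204174723 to 204176131 had 3.51 FPKM in roots and 1280 in shoots, a log2 ratio of -8.15 and the lowest of all members. Its minus partner, from 204175747 to 204177351, had 11.1 FPKM in roots and 8.33 in shoots. A further plus locus, from 5924234 to 5926085, had 1.54 FPKM in roots and 198 in shoots, and its minus partner, from 5925456 to 5929946, had 14.6 FPKM in roots and 8.84 in shoots. The overlaps were 385 and 630 bp, and both minus partners stayed within 2-fold between the tissues.

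**Figure D5:**
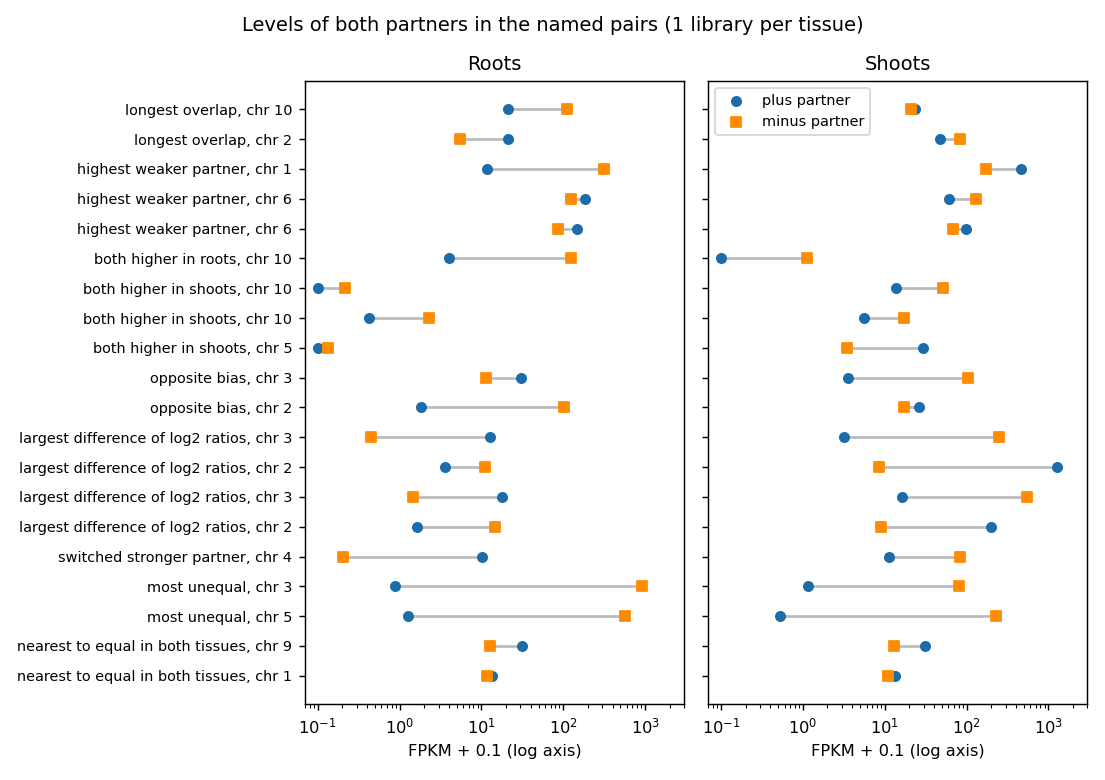
Levels of the plus partner (blue circles) and minus partner (orange squares) of the pairs chosen by rank, in roots and in shoots, on a log axis of FPKM with 0.1 added (x axis). Each row is 1 pair, labelled by the reason it was chosen and its chromosome; in the rows with the largest difference of log2 ratios the order of the symbols differs between the panels.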

How the data were processed

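Polyadenylated RNA of roots and shoots was sequenced strand-specifically for 100 cycles, 1 library per tissue, per the labels' protocols. The authors deposited 1 table of FPKM values for 37398 loci on B73 RefGen_v2, per the file header. TopHat, Cufflinks and Cuffdiff are named in the submitters' processing notes, without versions, and the settings are not stated there. The lowest row maximum was 1.00 FPKM. Depth is unknown, so no counting interval is given.

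Positions were parsed into chromosome, strand, start and end, and every plus and minus locus overlapping or within 1 kb was classed by arrangement. Log2 ratios used a pseudocount of 1 FPKM. With 1 library per tissue no test was made. Pairs were named by rank: longest overlap, highest weaker partner, shared or opposite 4-fold bias, largest difference of log2 ratios, exchanged stronger partner, most unequal and most even. The pairs at the limit of the definition were those with the shortest overlap or the smallest gap. Other loci named are said to be chosen after their values were seen. The members and lists were chosen with earlier results of these data known. Alternatives covered the pseudocount, low values, scaling, fold, overlap, span and detection. The pairing and the ratios were checked on simulated loci. Python 3.11.15, pandas 2.3.3, NumPy 2.4.6, SciPy 1.17.1 and matplotlib 3.10.9 were used.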

Additional observations from a re-analysis of the deposited data

How the results depend on the processing

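No paired analysis was possible because roots and shoots have a single library each, and none could be left out. Counts were taken as stable within 1.5 times, and medians and correlations within the 95% sampling interval over loci or pairs, which are not independent. With a pseudocount of 0.1 FPKM, 71 members were higher in roots, and both partners were higher in roots in 2 pairs, higher in shoots in 13 and of opposite bias in 6. With 5 FPKM, 19 members were higher in roots and 85 in shoots, 0 pairs had both partners higher in roots and 0 both higher in shoots, and 25 pairs exchanged their stronger partner. Among loci reaching 5 FPKM in a tissue, the median log2 ratio was 0.11 and 0 pairs had both partners higher in roots. Centring on the median of all loci gave a median log2 ratio of 0.0064. At 2-fold, 161 members were higher in roots and 243 in shoots, with 9 pairs shared toward roots, 19 toward shoots and 25 opposite. At 8-fold, 13 members were higher in roots, with 0, 1 and 0 such pairs. Overlaps of at least 100 bp had a median of 630.5 bp, and those over 100 bp one of 639 bp. At a detection level of 5 FPKM both partners were detected in 304 pairs in roots and 340 in shoots. The stronger partner differed in 167 pairs with no minimum fold and in 13 at 4-fold in each tissue. With both partners at 5 FPKM or more, a setting added after seeing the data, the weaker partner stood at 30.6% in roots and 38.2% in shoots. Most of these values move by construction, with the threshold or the shrinkage of low loci. Shares of all loci and of all opposite-strand pairs called higher in a tissue are not given for the changed settings. The counts of calls therefore do not compare members with other loci. More members were higher in shoots than in roots in every setting run, and the correlation of partners' log2 ratios stayed between -0.06 and -0.03. Restriction to overlaps over 100 bp, added after seeing the data, moved no value outside these limits other than the median overlap. A count that fell only with the number of pairs, from 693 to 499, would stay within 1.5 times. The pairs kept are also part of the full set, so this restriction could hardly show a difference. Without the depth, counting error of low partners was not assessed.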
